A study of Mus musculus with 8 samples.

Results

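The 10 genes described here encode the main proteins of the lens capsule or a protein bound to them: the collagen IV chains Col4a1, Col4a2, Col4a3 and Col4a4, the laminin chains Lama1, Lamb1 and Lamc1, the linkers Nid1 and Hspg2, and Sparc. They were taken by name from knowledge of the capsule, out of 21000 protein-coding genes with a curated RefSeq transcript. Their loci were set as the gene body plus 50 kb on each side on GRCm38 (mm10). Col4a1 and Col4a2 lie head to head with start sites 21 bp apart, and Col4a3 and Col4a4 with start sites 72 bp apart. The 10 genes therefore have 8 promoters in 8 loci, and each pair shares its promoter values. Lens epithelium and lens fibers were micro-dissected from CD1 mice at 2 ages, the embryonic stage E14.5 and the newborn stage P0.5, with several lenses in each library and no genetic change or treatment in any group. ATAC-seq, in which a transposase cuts open chromatin, was run on 2 libraries per group. The deposited peak lists hold the 2 libraries of a group pooled, so each group gave 1 list with no spread between replicates, and no test between groups was possible. The lists held 100003 peaks in embryonic epithelium, 123743 in embryonic fibers, 58592 in newborn epithelium and 62995 in newborn fibers.

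The lens capsule is the basement membrane that wraps the whole lens. Laminin heterotrimers assemble at the cell surface through integrins and dystroglycan, collagen IV heterotrimers form a second, crosslinked network, and nidogen and perlecan join both networks. The epithelium lays down the anterior capsule and the fibers the posterior capsule, and the capsule goes on growing as the lens does. The α1 and α2 chains of collagen IV are made in nearly every basement membrane, while the α3 and α4 chains are added in a few tissues, among them the kidney glomerulus and the lens capsule.

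A peak was placed by its fold enrichment over local background, ranked within its own list, and given as a percent of the list from the top, so that a small percent is a strong peak. The promoter peak of a gene is the best-ranked peak that touches the 2 kb on either side of its start site. The number of fragments over the summit was recovered from the fold enrichment and the Poisson p-value, and came out whole within 0.05 for 100% of the peaks of every list. Intervals on a rank come from the exact 95% Poisson interval of that number and cover counting error only. The lowest peaks rested on 6 to 8 fragments, and the median peak on 14 in embryonic epithelium, 15 in embryonic fibers, 13 in newborn epithelium and 8 in newborn fibers. Ranks were coarse in newborn fibers, where 22.1% of the list shared 1 rank.

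The promoters and the strongest regions outside promoters are shown first, on the plus strand of GRCm38 unless stated, since the values below turn on them. Capitals mark matches on either strand to the motifs searched: Sp1 (GGGCGG), NFY (CCAAT), the TATA box (TATAAA), AP-1 (TGANTCA), Tead (GGAATG), Maf (TGCTGA), Sox (AACAAT), Fox (TGTTTAC), Ets (CCGGAA), Runx (TGTGGT) and CTCF by its name. The Tead and Ets letters can overlap, as they do upstream of Nid1 and in Lama1. The first bases of Col4a2 are also the first bases of Col4a1 on the opposite strand, and this 22-base stretch at chr8:11312805-11312826 lies under the promoter peak of both genes and holds an Sp1 match.
Col4a1 and Col4a2, shared first bases: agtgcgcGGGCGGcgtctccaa
The 71 bases between the start sites of Col4a4 and Col4a3 at chr1:82586850-82586920 hold no match to any of these motifs.
Col4a4 and Col4a3, between the start sites: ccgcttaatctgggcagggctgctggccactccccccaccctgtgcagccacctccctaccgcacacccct
The 250 bases before the start site were taken from RefSeq for Hspg2 (chr4:137468553-137468802), whose promoter peak stood near the top of every list, and for Nid1 (chr13:13437352-13437601), whose promoter peak was among the lowest.
Hspg2, before the start site: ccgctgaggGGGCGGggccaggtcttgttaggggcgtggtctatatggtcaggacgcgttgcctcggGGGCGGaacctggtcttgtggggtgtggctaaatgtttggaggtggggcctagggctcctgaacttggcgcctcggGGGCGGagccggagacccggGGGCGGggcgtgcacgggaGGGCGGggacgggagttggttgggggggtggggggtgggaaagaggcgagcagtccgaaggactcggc
Nid1, before the start site: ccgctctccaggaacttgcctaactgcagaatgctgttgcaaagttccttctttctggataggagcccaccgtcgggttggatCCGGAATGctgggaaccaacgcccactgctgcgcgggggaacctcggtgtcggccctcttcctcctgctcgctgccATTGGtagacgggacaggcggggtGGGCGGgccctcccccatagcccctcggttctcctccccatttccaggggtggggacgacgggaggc
The Hspg2 stretch holds 5 Sp1 matches, and the Nid1 stretch holds 1 Sp1, 1 NFY, 1 Tead and 1 Ets match. RefSeq promoters, 300 bases from 250 before to 50 after the start, were matched for 7 of the 10 genes and not for Col4a3, Lama1 and Lamc1. Sp1 letters were found in 5 of the 7 against 35.7% of 32851 RefSeq promoters, NFY letters in 4 against 37.4%, and TATA box letters in 0 against 13.6%. The Sp1 match of Col4a1 is the one in the 22 bases that it shares with Col4a2, and Col4a2 has others of its own.

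Outside promoters, the region of each locus with the best rank in any list was taken, leaving out regions over the promoter of another gene. That condition was added after the values were seen. Such a choice favours the list in which a region was strongest, so directions between lists are described for these regions and not tested. The region taken lay in an intron of a member at 7 loci and upstream of the gene at Sparc. The 200 bases around each summit are given below.
Nid1, intron 9, chr13:13484326-13484525: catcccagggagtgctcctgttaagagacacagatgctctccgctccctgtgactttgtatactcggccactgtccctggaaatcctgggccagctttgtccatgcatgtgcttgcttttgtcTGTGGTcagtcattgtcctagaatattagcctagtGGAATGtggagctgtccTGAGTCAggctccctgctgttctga
Lama1, intron 3, chr17:67732096-67732295: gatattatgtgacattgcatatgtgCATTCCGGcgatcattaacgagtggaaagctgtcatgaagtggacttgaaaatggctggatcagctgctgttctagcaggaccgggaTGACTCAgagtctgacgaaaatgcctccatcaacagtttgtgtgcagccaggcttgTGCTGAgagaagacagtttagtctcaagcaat
Lamb1, intron 3, chr12:31271592-31271791: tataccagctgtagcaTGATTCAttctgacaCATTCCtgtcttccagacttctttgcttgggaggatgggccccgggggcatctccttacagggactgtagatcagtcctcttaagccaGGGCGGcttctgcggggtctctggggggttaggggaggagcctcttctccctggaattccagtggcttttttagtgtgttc
Sparc, 8.35 kb upstream, chr11:55428328-55428527: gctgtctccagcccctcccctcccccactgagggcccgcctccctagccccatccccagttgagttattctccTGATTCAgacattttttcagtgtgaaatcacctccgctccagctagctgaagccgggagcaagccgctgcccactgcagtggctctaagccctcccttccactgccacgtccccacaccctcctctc
Col4a1, intron 1, chr8:11282214-11282413: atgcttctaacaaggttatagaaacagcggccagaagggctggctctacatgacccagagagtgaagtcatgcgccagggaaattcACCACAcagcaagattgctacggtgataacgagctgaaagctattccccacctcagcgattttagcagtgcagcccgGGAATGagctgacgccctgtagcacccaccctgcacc
Hspg2, intron 1, chr4:137494848-137495047: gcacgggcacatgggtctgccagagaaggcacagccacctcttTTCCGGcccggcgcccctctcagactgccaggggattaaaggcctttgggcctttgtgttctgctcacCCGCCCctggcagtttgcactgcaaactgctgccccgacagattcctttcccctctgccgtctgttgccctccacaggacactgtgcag
Lamc1, intron 1, chr1:153329506-153329705: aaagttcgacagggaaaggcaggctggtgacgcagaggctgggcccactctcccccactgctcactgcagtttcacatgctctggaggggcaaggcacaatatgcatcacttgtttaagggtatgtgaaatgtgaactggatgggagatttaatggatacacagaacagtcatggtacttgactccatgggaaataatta
Col4a3, intron 1, chr1:82634552-82634751: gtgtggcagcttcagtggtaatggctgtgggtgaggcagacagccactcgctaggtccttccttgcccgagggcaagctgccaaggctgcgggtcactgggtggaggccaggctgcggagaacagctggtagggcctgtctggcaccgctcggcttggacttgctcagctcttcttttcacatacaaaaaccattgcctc
AP-1 letters were found in 4 of these 8 windows (Nid1, Lama1, Lamb1, Sparc), against 7.99% of the 6861 regions outside all promoters that ranked at least as high as the lowest of the 8. Tead letters were found in 4 of the 8 (Nid1, Lama1, Lamb1, Col4a1), against 16.5% of the same regions. Sp1, Ets and Runx letters were each in 2 of the 8, against 16.7%, 5.36% and 14.8%. Maf letters were in 1 against 31.0%, and NFY letters in 0 against 22.9%. TATA box, Sox, Fox and CTCF letters were in 0, against 4.71%, 8.96%, 2.33% and 7.39%. With the regions over promoters of other genes kept in the choice, AP-1 letters were in 2 of 8 windows and Tead letters in 3. The AP-1 match began 12 bases to the right of the summit in Lama1 and 75 in Nid1, and 27 bases to the left of it in Sparc and 84 in Lamb1. The windows of Col4a3 and Lamc1 held no match. Over all 555 merged regions of the 8 loci the shares were closer to the background. Tead letters were in 18.0% of them (Wilson 95% interval 15.0 to 21.4) against 13.7% of 185271 merged regions, and AP-1 letters in 7.57% (5.65 to 10.1) against 6.58%. Fox letters were in 4 of the 555 regions, or 0.721% (0.281 to 1.84), against 2.16%. Sp1 letters were in 7.03% (5.18 to 9.46) against 10.8%. The intervals of the motifs not given here held their shares of all merged regions. A match of letters does not show that a factor was bound.

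The 8 loci held 390 peaks in embryonic epithelium, 419 in embryonic fibers, 156 in newborn epithelium and 116 in newborn fibers, which is 0.390%, 0.339%, 0.266% and 0.184% of the lists. A promoter peak was called for 10 of 10 members in embryonic epithelium (70.3% of all genes), 10 in embryonic fibers (71.2%), 10 in newborn epithelium (67.0%) and 9 in newborn fibers (64.6%), the exception being Nid1. The median of the members with a promoter peak stood at 10.3%, 7.91%, 18.0% and 6.94% of the 4 lists in the same order, and that of all genes with a promoter peak at 7.68%, 6.10%, 12.8% and 10.3%. The value in newborn fibers is that of the shared Col4a1 and Col4a2 promoter and leaves out Nid1.

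**Figure D1:**
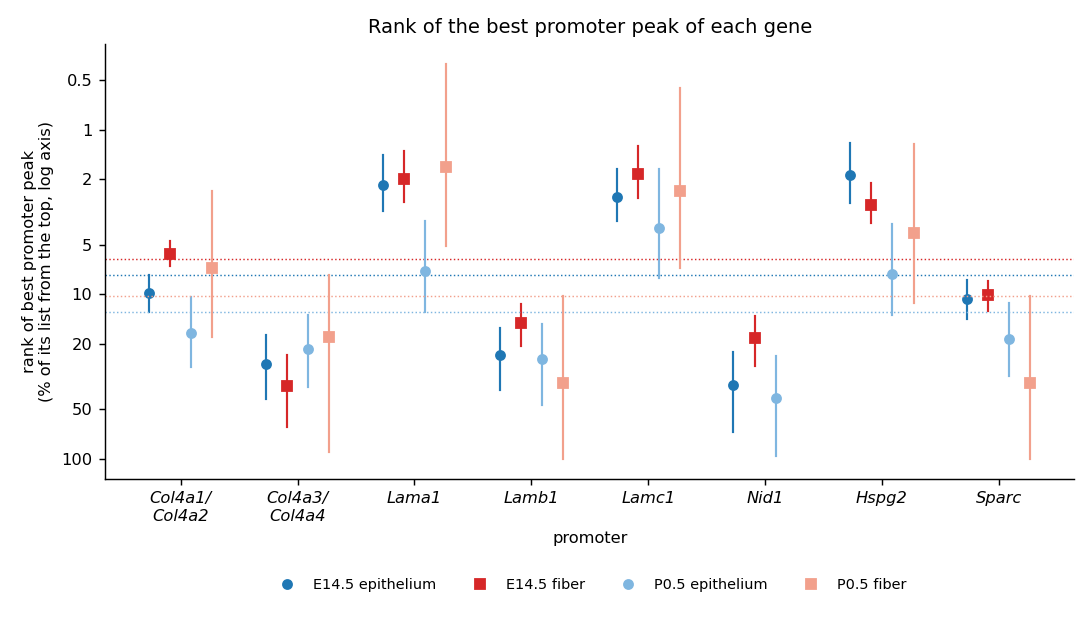
Rank of the best promoter peak of the 8 promoters in the 4 lists, as a percent of the list from the top on a log axis that runs upward to stronger peaks. Lines are ranks at the ends of the exact 95% Poisson interval of the summit fragments, dotted lines the median of all genes with a promoter peak in the list of that colour, and Nid1 has no point in newborn fibers. Lama1, Lamc1 and Hspg2 stood between 1.69% and 7.57% in every list, above the other 5 promoters of the same list.

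Among the laminin chains, the promoters of Lama1 and Lamc1 were among the strongest of the 8 and that of Lamb1 was far weaker. Lama1 encodes the α1 chain of laminin-111, the main laminin of early basement membranes. Its promoter peak stood at 2.18% of the list in embryonic epithelium, 2.0% in embryonic fibers, 7.24% in newborn epithelium and 1.69% in newborn fibers, on 173, 253, 50 and 35 fragments. Lamc1 encodes the γ1 chain shared by most laminins, and its promoter peak stood at 2.56%, 1.87%, 3.97% and 2.35% in the same order. Lamb1 encodes the β1 partner of these chains. Its promoter peak stood at 23.3%, 14.9%, 24.9% and 34.7%, on 27, 47, 22 and 9 fragments. Lamb1 was thus lower than both partners in all 4 lists, with intervals that did not overlap theirs. In embryonic fibers the peak counted for Lamb1 had its summit at -3232 bp from the start site and reached the 2 kb window only with its edge. In the other lists the summit lay within 224 bp of the start site.

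The shared promoter of Col4a1 and Col4a2 held a middle position. Its peak stood at 9.90% in embryonic epithelium, 5.72% in embryonic fibers, 17.2% in newborn epithelium and 6.94% in newborn fibers, on 64, 136, 30 and 21 fragments. It was nearer the top in fibers than in epithelium at both stages. At E14.5 the intervals ran from 7.68% to 12.8% in epithelium and from 4.73% to 6.76% in fibers, but the fiber list is longer, and counted as rank numbers (7678 to 12763 and 5855 to 8371) they overlapped. The median shift of all genes from epithelium to fibers at E14.5 was also toward the top, at -0.36 on the log2 scale of the percents against -0.79 for this promoter. At P0.5 the intervals overlapped in percent (10.4% to 27.9% and 2.35% to 18.2%). The peak itself spanned 2160 bp in embryonic epithelium and 4957 bp in embryonic fibers, but 1261 bp and 894 bp at P0.5. The shared promoter of Col4a3 and Col4a4 was weaker, at 26.4%, 36.0%, 21.5% and 18.2% on 24, 20, 25 and 12 fragments. In embryonic fibers 90.8% of genes with a promoter peak ranked above it.

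The linker genes lay far apart, with Hspg2 among the strongest promoters of the members and Nid1 among the weakest. Hspg2 encodes perlecan, the heparan sulfate proteoglycan of basement membranes, and its promoter peak stood at 1.89% in embryonic epithelium, 2.87% in embryonic fibers, 7.57% in newborn epithelium and 4.22% in newborn fibers. Nid1 encodes nidogen-1, which binds laminin γ1 and collagen IV. Its promoter peak stood at 35.9% in embryonic epithelium on 18 fragments, 18.5% in embryonic fibers on 38 and 42.9% in newborn epithelium on 14. In embryonic fibers and newborn epithelium the summit of this best peak lay 1077 and 1066 bp past the start site, and in embryonic epithelium 24 bp past it. Embryonic fibers also had a peak at the start site, weaker than the other, at 27.2% on 26 fragments. Sparc encodes a calcium- and collagen-binding matrix protein. Its peak stood at 10.7%, 10.1%, 18.8% and 34.7%, and at E14.5 the best summit lay 1792 and 1808 bp inside the gene. At P0.5 it lay 161 bp inside the gene in epithelium and 712 bp inside it in fibers, the last on 9 fragments.

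In the order of the embryonic fiber list, Lamc1, Lama1 and Hspg2 overlapped in their counting intervals and were followed by Col4a1/Col4a2, whose interval overlapped neither that of Hspg2 nor that of Sparc. Sparc overlapped Lamb1, Lamb1 overlapped Nid1, and Nid1 overlapped Col4a3/Col4a4 at the foot.

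Promoters were then compared between lists, and a gene was called where its promoter peak stood at least 2-fold nearer the top of one list, or where one list alone had a promoter peak. Between the tissues at E14.5, 0 of 10 members were called in either direction, where 5.27% of all genes were called nearer the top in epithelium and 15.5% in fibers. Nid1 came nearest to a call, with a fiber percent 0.516 times the epithelial percent where 0.5 is the limit, but these are 2 different peaks. The start-site peak stood at 35.9% in epithelium and 27.2% in fibers, and the peak about 1.08 kb past it at 40.6% and 18.5%, which taken alone is past the limit. Between the tissues at P0.5, Col4a1, Col4a2 and Lama1 were nearer the top in fibers (23.9% of all genes) and Nid1 in epithelium (21.3%), the last because fibers had no Nid1 promoter peak. These are 2 promoters toward fibers and 1 toward epithelium out of 8. The counting intervals of Col4a1/Col4a2 and of Lama1 overlapped between the P0.5 lists. With only peaks below a q value of 0.001, Lama1 alone remained toward fibers (8.20% of all genes), and Lamb1, Nid1 and Sparc were toward epithelium (41.9%).

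Between stages, Lama1 and Hspg2 were nearer the top in embryonic than in newborn epithelium (41.1% of all genes), and no member was called the other way (4.46%). In percent the counting intervals of these genes did not overlap between the epithelial lists. Lama1 ran from 1.433% to 3.135% in the embryo and from 3.608% to 12.78% in the newborn. Hspg2 ran from 1.203% to 2.788% and from 3.758% to 13.34%. However, the embryonic list is longer, and counted as rank numbers the intervals overlapped for both. Lama1 ran from 1433 to 3135 in the embryo and from 2114 to 7490 in the newborn, and Hspg2 from 1203 to 2788 and from 2202 to 7816. In fibers, Lamb1, Nid1 and Sparc were nearer the top at E14.5 (50.2%), and no member was called toward P0.5 (4.45%). The counting intervals overlapped for Lamb1 (11.5% to 20.7% in the embryo and 10.3% to 100% in the newborn) and for Sparc (8.35% to 12.7% and 10.3% to 100%), and Nid1 was called because newborn fibers had no promoter peak. With only peaks below a q value of 0.001 the count in fibers was 7, where 78.7% of all genes were called the same way. Calls toward E14.5 were common over all genes. When every list was cut to its 58592 strongest peaks, the stage calls changed. Hspg2 in epithelium and Nid1 in fibers stayed toward E14.5, while Col4a3 and Col4a4 were called toward P0.5 in both tissues and Lama1 toward P0.5 in fibers. With these lists 14.2% of all genes were called toward E14.5 in epithelium and 14.7% toward P0.5, and in fibers 19.5% and 16.6%. The Lamb1 call also depended on its off-centre E14.5 peak, and was lost with a promoter of 1 kb or when the summit had to lie inside the promoter. The Sparc call sets summits at different positions against each other, 1808 bp inside the gene at E14.5 and 712 bp at P0.5.

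The members also differed in how much of the gene body lay under peaks. Col4a1 had 17.2% of its 114 kb body under peaks in embryonic epithelium, 44.5% in embryonic fibers, 4.31% in newborn epithelium and 2.64% in newborn fibers. In embryonic fibers only 4.70% of 19556 genes of at least 1 kb were covered as much. Col4a2, with a body of 136 kb, had 18.3%, 31.8%, 5.42% and 2.17%. The median gene had 2.55%, 4.06%, 1.39% and 1.29%, so that both genes stood above it in all lists, and at P0.5 by far less. The drop from E14.5 to newborn fibers was 41.9 percentage points for Col4a1, and 1.58% of all genes had a drop as large. With 58592 peaks in every list Col4a1 had 9.61% in embryonic epithelium, 29.2% in embryonic fibers and 2.43% in newborn fibers, and 3.02% of all genes had a drop in fibers as large. Col4a2 then had 10.3% in embryonic epithelium and 16.3% in embryonic fibers.

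**Figure D2:**
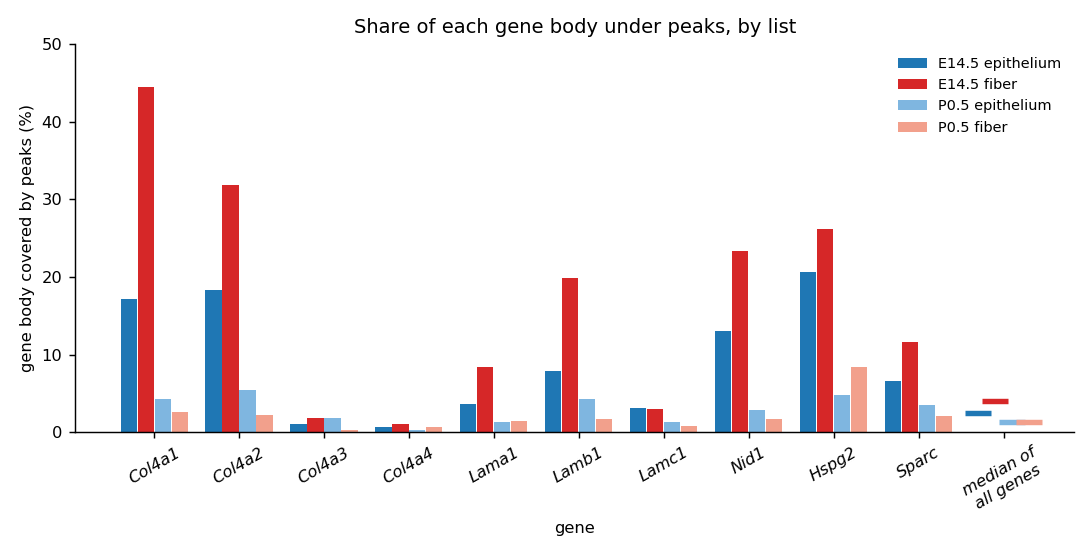
Percent of each gene body covered by peaks in the 4 lists, 1 bar per list and gene, with the median of 19556 genes at the right. There are no error bars because each group gave 1 pooled list. Col4a1 reached 44.5% in embryonic fibers, and Col4a3 and Col4a4 stayed between 0.305% and 1.88% in every list.

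Col4a3 and Col4a4, whose bodies are 135 and 136 kb long, had almost none of this cover. Their bodies were under peaks for 1.03% and 0.631% in embryonic epithelium, 1.87% and 1.08% in embryonic fibers, 1.88% and 0.305% in newborn epithelium and 0.369% and 0.696% in newborn fibers. The loci of Col4a1 and Col4a2 held 53.6 and 58.4 peaks per 100 kb in embryonic fibers, and those of Col4a3 and Col4a4 held 4.68 and 5.51. Hspg2 had 20.6%, 26.2%, 4.87% and 8.42% of its body under peaks, the first of which was 10.2% with 58592 peaks in the list. Of the other genes, Nid1 had 13.1%, 23.3%, 2.85% and 1.71%, and Lamb1 7.96%, 19.9%, 4.26% and 1.75%. Sparc had 6.59%, 11.7%, 3.52% and 2.06%, and Lama1 3.60%, 8.45%, 1.31% and 1.44%. Lamc1 had 3.16%, 2.99%, 1.37% and 0.761%, below the median gene in embryonic fibers and in both newborn lists, although its promoter peak was the highest of the 8 in embryonic fibers. Part of this cover was in weaker peaks. With 58592 peaks in every list the embryonic fiber values were 12.3% for Lamb1, 5.38% for Lama1 and 1.42% for Lamc1, and the embryonic epithelium value of Col4a4 was 0.406%. With only peaks below a q value of 0.001 the newborn fiber values were 5.52% for Hspg2, 0.498% for Sparc, 1.69% for Col4a1 and 0.936% for Col4a2, and Lamc1 had 1.79% in embryonic fibers.

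In embryonic fibers 9 of 10 members had more of the body under peaks than in embryonic epithelium (65.9% of all genes), the exception being Lamc1 (15.3%). At P0.5, 7 members had more in epithelium (42.4%), while Col4a4, Lama1 and Hspg2 had more in fibers (36.7%). With only peaks below a q value of 0.001 Lama1 turned, with 1.2% in epithelium and 0.945% in fibers, and the counts were 8 and 2. Hspg2 was the member with the most cover in newborn fibers. From the embryonic to the newborn stage, cover was lower for 9 of 10 members in epithelium (73.1% of all genes), with Col4a3 higher at P0.5 (6.84%), and for 10 of 10 in fibers (76.2%), where 0 were higher at P0.5 (5.67%). The counts of all 4 comparisons were the same with 58592 peaks in every list. Lower cover with fewer and shallower peaks is common to the P0.5 lists, and depth and stage cannot be told apart here.

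**Figure D3:**
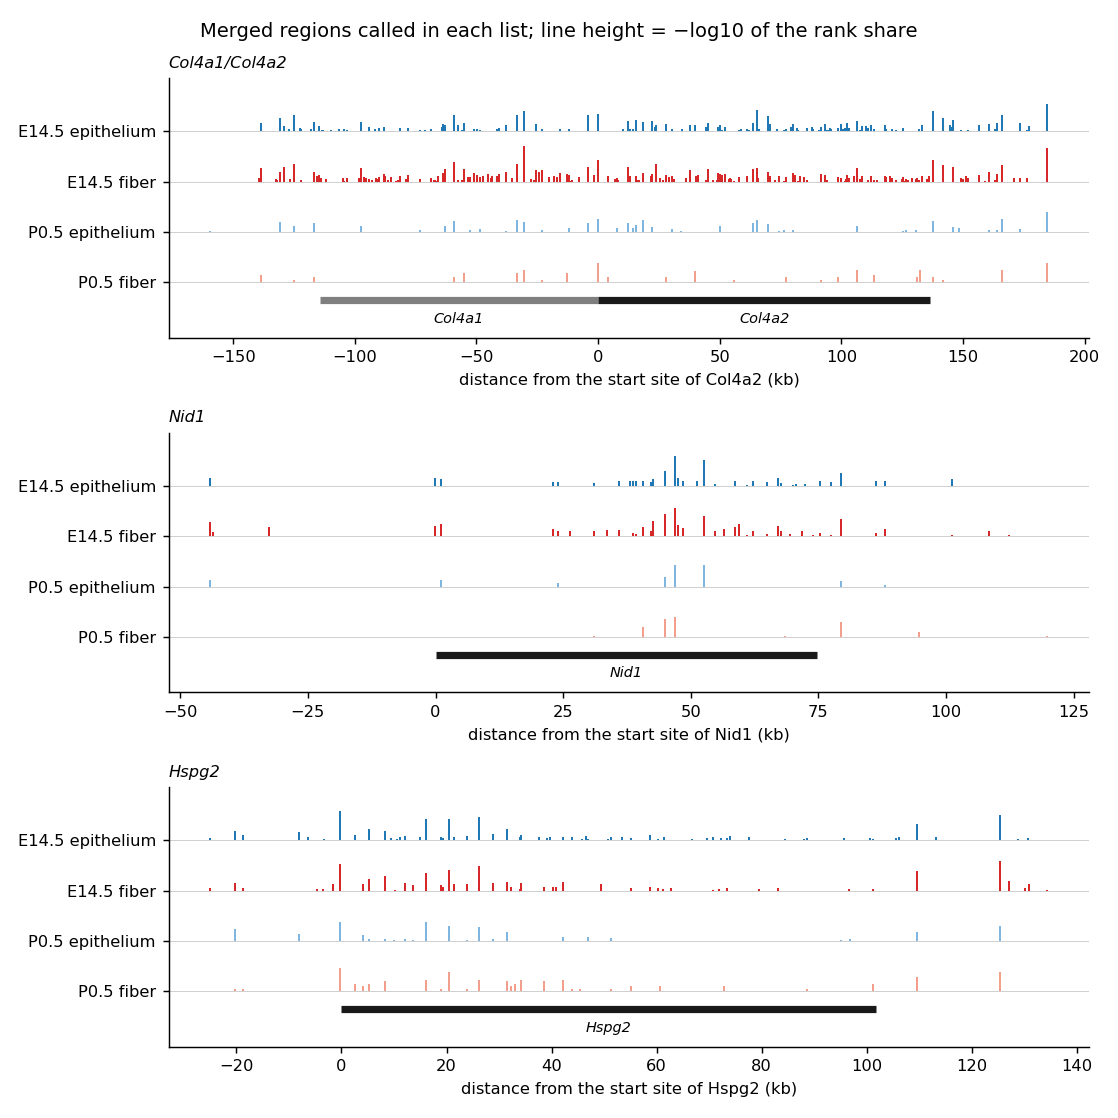
Merged regions of 3 loci at their distance in kb from a start site, 1 row per list; the height of a line is the negative log10 of the region's rank share in that list, from 0 at the foot of the list. Dark and grey bars are gene bodies. Lines crowd both collagen genes in the E14.5 lists and thin out at P0.5, and at Nid1 the lines at 46.8 kb are taller than those at the start site.

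Merging the 4 lists gave 185368 regions, of which 555 lay in the 8 loci. Of these 407 lay in a member's gene body, 80 between genes, 30 in the body of another gene, 19 at a member's promoter and 19 at the promoter of another gene. Outside the members' promoters, the region with the best rank in any list belonged to a neighbour at 3 loci. It was the G3bp1 promoter at the Sparc locus, the Dld promoter at Lamb1 and the Usp48 promoter at the far end of the Hspg2 locus. These 3 regions are not described singly, and they stay in the shares over 555 regions.

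Inside Nid1, the region that ranked highest in 3 of the 4 lists lay in intron 9, 46.8 kb past the start site, and not at the promoter. It stood at 1.85% of the list in embryonic epithelium, 2.31% in embryonic fibers, 5.87% in newborn epithelium and 6.94% in newborn fibers, on 183, 240, 55 and 21 fragments. In newborn epithelium a region in exon 12, 52.5 kb past the start site, ranked above it, at 5.37% on 57 fragments. The Nid1 promoter had 18, 38 and 14 fragments in the first 3 lists and no peak in the fourth. This is the window printed above with AP-1, Tead and Runx letters.

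Inside Col4a1, a region in intron 1, 30.5 kb past the start site, ranked 995 of 123743 peaks in embryonic fibers, or 0.804%, on 326 fragments. It stood at 6.12% in embryonic epithelium on 98 fragments, 26.3% in newborn epithelium on 21 and 18.2% in newborn fibers on 12. It was nearer the top in fibers at E14.5, while at P0.5 the percents differed by less than the 2-fold limit. It stood above the shared promoter in both E14.5 lists and below it in both P0.5 lists.

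In Col4a3, a region in intron 1, 47.7 kb past the start site, was the strongest of all the members' regions outside promoters in newborn epithelium. It ranked 345 of 58592 there, or 0.589%, on 101 fragments. It stood at 13.8% in embryonic epithelium, 22.1% in embryonic fibers and 21.4% in newborn fibers, on 45, 32 and 11 fragments. The promoter of Col4a3 stood at 21.5% in the same newborn epithelium list.

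The remaining loci differed in which list held the stronger peak, though each region was chosen by its best rank in any list. At Sparc the region 8.35 kb upstream stood at 4.68%, 2.81%, 23.6% and 69.2% in embryonic epithelium, embryonic fibers, newborn epithelium and newborn fibers. At Lamb1 the intron 3 region was stronger in epithelium at both stages. It stood at 6.12% against 23.5% at E14.5, on 98 and 30 fragments. At P0.5 it stood at 5.87% against 34.7%, on 55 and 9 fragments. At Lama1 the intron 3 region was stronger in fibers, with 8.04% against 18.9% at E14.5, and at P0.5 it was called in fibers alone, at 48.9% on 8 fragments. At Hspg2 the intron 1 region stood at 4.15%, 3.51%, 14.6% and 21.4%. At Lamc1 the intron 1 region stood at 13.0%, 34.2% and 27.9% and was not called in newborn fibers.

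Regions called in one tissue at both stages and never in the other were few, at shares whose intervals held those of all merged regions. There were 11 of the epithelial kind, 1.98% of the 555 (Wilson 95% interval 1.11 to 3.51) against 2.28% of all merged regions, and 10 of the fiber kind, 1.80% (0.982 to 3.28) against 2.43%. The best epithelial one lay 32.9 kb upstream of Lamb1, on 21 fragments in the embryo and 15 in the newborn. The best fiber ones lay in intron 1 of Col4a1, 13.0 kb past the start site, and in intron 3 of Hspg2, 38.7 kb past it, both at 26.4% of the newborn fiber list on 10 fragments. At Nid1 there were none of either kind among 49 regions.

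By stage, 66.1% of the 555 regions (62.1 to 69.9) were called in E14.5 lists only, against 53.6% of all merged regions, and 6.31% (4.57 to 8.64) in P0.5 lists only, against 17.6%. All 4 lists called 7.39% (5.49 to 9.87), against 10.9%. Col4a1/Col4a2 held 229 of the 555 regions. The share called in E14.5 lists only was 73.4% (67.3 to 78.7) there and 73.5% (59.7 to 83.8) at Nid1. It was 44.0% (26.7 to 62.9) at Sparc and 41.4% (25.5 to 59.3) at Col4a3/Col4a4, and between 58.8% and 68.3% at the other loci. The share called in P0.5 lists only was 27.6% (14.7 to 45.7) at Col4a3/Col4a4. These last 3 intervals, for Sparc and Col4a3/Col4a4, held the shares of all merged regions. With 58592 peaks in every list the share for E14.5 only was 35.3% (29.9 to 41.0) against 27.3%, and for P0.5 only 25.2% (20.4 to 30.6) against 35.5%. By tissue, 21.6% (18.4 to 25.2) were called in epithelium and no fiber list, against 19.8%, and 35.1% (31.3 to 39.2) in fibers and no epithelial list, against 44.4%. With 58592 peaks per list the order of these shares turned, with 30.2% (25.1 to 35.9) in epithelium and no fiber list, against 23.6%, and 26.3% (21.4 to 31.7) in fibers and no epithelial list, against 37.4%. Regions of 1 locus are neighbours and not independent, so the intervals are too narrow to the extent that they move together.

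**Figure D4:**
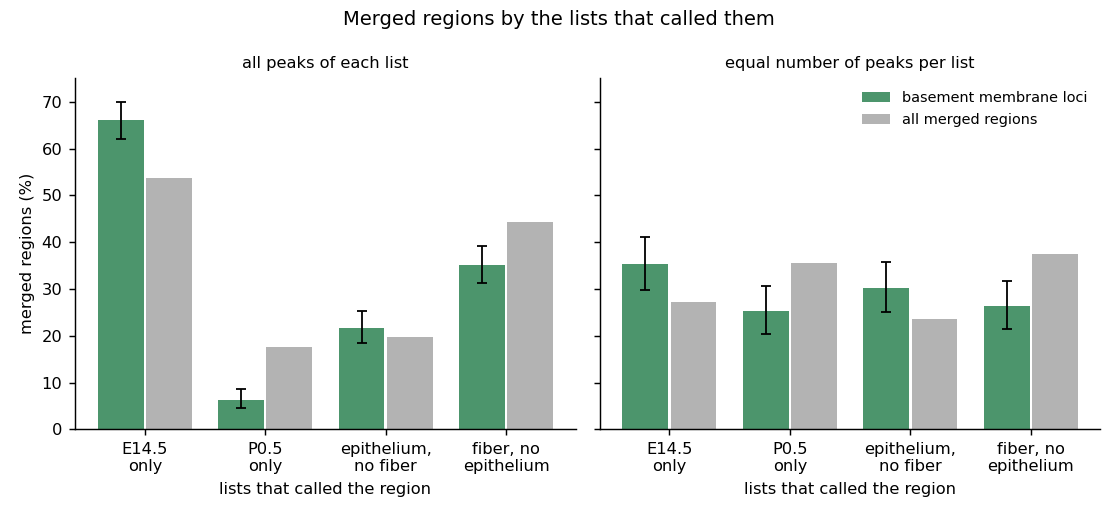
Percent of merged regions by the lists that called them, in the 8 loci (green, with Wilson 95% intervals) and over all merged regions (grey), with all peaks on the left and with 58592 peaks per list on the right. In both panels the loci had a larger share called in E14.5 lists only and a smaller share called in P0.5 lists only.

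A further 53 genes of basement membranes were read in 4 groups. At E14.5, 51 had a promoter peak, with 2 nearer the top in epithelium (5.27% of all genes) and 6 in fibers (15.5%). At P0.5, 49 had one, with 14 nearer the top in epithelium (21.3%) and 8 in fibers (23.9%). Of 24 other capsule or basement membrane components, 21 had a promoter peak in a P0.5 list, of which 9 were nearer the top in epithelium (21.3% of all genes) and 1, Ntn4, in fibers (23.9%). The 9 were Col4a5, Col4a6, Lama2, Nid2, Tinagl1, Egflam, Frem1, Frem2 and Fras1, of which Col4a5 and Col4a6 share a promoter, and 6 of them had no promoter peak in newborn fibers. Markers of endothelium and retina were also called toward newborn epithelium, as given below, and the part of such cells was not tested. Nid2, the paralog of Nid1, stood at 7.27%, 8.20%, 2.78% and 34.7% in the usual order of lists, and was above Nid1 in embryonic epithelium, embryonic fibers and newborn epithelium. Frem1, a protein of the Fraser complex, was the one component nearer the top in epithelium at both stages, at 50.8% and 42.9%, with no promoter peak in either fiber list. Agrn, which encodes the proteoglycan agrin, had the strongest promoter among the components by mean log rank over the lists, at 2.72%, 3.83%, 7.95% and 10.3%. However, Npnt stood above it in both newborn lists, and other components in newborn epithelium or newborn fibers alone.

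The 3 strongest promoters of the 53 genes, by mean log rank over the lists, belonged to enzymes of collagen making. P4ha1, a catalytic subunit of prolyl 4-hydroxylase, stood at 0.523%, 0.162%, 2.54% and 0.283%. P3h1, a prolyl 3-hydroxylase, stood at 1.41%, 0.612%, 7.95% and 2.85%. Both were nearer the top in fibers at both stages. P4hb, the other subunit of prolyl 4-hydroxylase, was nearer the top in fibers at E14.5 only, at 0.545% against 0.198%. Of the 14 genes of this group 13 had a promoter peak at each stage, and these 3 at E14.5 (15.5% of all genes) and 2 at P0.5 (23.9%) were those called toward fibers. Plod2 and Colgalt1 were nearer the top in epithelium at P0.5 (21.3%). Among 9 receptors, Itga2 and Dag1 were nearer the top in fibers at E14.5 (15.5% of all genes). At P0.5, Itga1, Itga2 and Itgb4 were nearer the top in epithelium (21.3%) and Bcam and Ddr1 in fibers (23.9%). Dag1, which encodes dystroglycan, had the strongest promoter by mean log rank, at 1.75%, 0.788%, 5.61% and 3.45%, with Itgb1 just above it in newborn epithelium at 5.37%. Among 6 remodelling genes, 0 were called at E14.5 (5.27% and 15.5% of all genes), and Mmp2, Mmp9 and Timp2 were nearer the top in fibers at P0.5 (23.9%). Timp2, an inhibitor of matrix metalloproteinases, was first of these by mean log rank, at 5.96%, 5.14%, 15.1% and 3.45%, but Adamts1 or Timp3 stood above it in every list except newborn fibers.

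The tissue labels were checked on marker promoters. Of 10 fiber markers, 9 had a promoter peak at each stage. Of these, 8 were nearer the top in embryonic fibers (15.5% of all genes) and 6 in newborn fibers (23.9%), and 0 in epithelium of either stage (5.27% and 21.3%). Of 5 epithelial markers only Gja1, at P0.5, was nearer the top in epithelium, and Pax6 was nearer the top in fibers at E14.5. Of 8 endothelial markers, whose cells also make collagen IV and laminin, 7, 6, 5 and 3 had a promoter peak in the 4 lists (70.3%, 71.2%, 67.0% and 64.6% of all genes), with medians of 25.3%, 16.4%, 33.9% and 26.4%. Pecam1, Tie1 and Emcn had none in either P0.5 list. Of 6 mesenchymal markers 6, 6, 6 and 5 had one, and of 4 blood and macrophage markers 2, 2, 1 and 1, with Ptprc and Cx3cr1 in no list. Of 4 retinal markers 3, 4, 2 and 0 had one. The part of such cells in the values of the members was not tested.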

How the data were processed

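ATAC-seq reads of 8 libraries were trimmed with Trim Galore 0.4.1, mapped to mm10 with Bowtie2 2.3.3.1, freed of mitochondrial and duplicated reads with SAMtools 1.2 and Picard 2.1.1, and used for peak calling with MACS2 2.1 at a q value of 0.05, per the submitters' processing notes and the study's methods. The authors' deposited fold enrichment is the ratio of summit fragments to the local background. The deposited −log10 p and −log10 q values are those of the Poisson model, and the deposited peak score, made from the q value, was not used. The authors deposited 1 list per group with the 2 libraries pooled, and 0 columns stayed unassigned. Summit offsets gave peak centres.

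Here peaks were ranked by fold enrichment within a list with ties at the best rank, assigned to genes by an overlap of at least 1 bp with the 45756 curated RefSeq transcripts of GRCm38, and merged at 10 bp with bedtools 2.31.1. Tables and intervals used python 3.11.15, pandas 2.3.3, numpy 2.4.6 and scipy 1.17.1, and sequences samtools 1.23.1 and pysam 0.24.0. The steps were tested on simulated data. Motif positions count from the summit or the start site as 0. The lists give no depth per library. No blacklist was applied.

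The members and gene lists were chosen with earlier results of these data known. Named were all 10 members, and of the 53 other genes those called the same way between tissues at both stages and the strongest promoter of each group. Nid2, P4hb, Npnt, Itgb1, Adamts1 and Timp3, and the genes listed by name in a count, were named after their values were seen. Alternatives were a q value under 0.001, equal numbers of peaks by p-value, predicted transcripts, overlap by the summit, 10 kb flanks, a promoter of 1 kb, ranking by p-value, a 3-fold ratio and merging at 0 and 100 bp.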

Additional observations from a re-analysis of the deposited data

How the results depend on the processing

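No paired analysis was possible because each group was deposited as 1 pooled list, and for the same reason no library could be left out. Of 128 counts and shares recomputed, 112 stayed within 1.5 times the value or inside its Wilson interval. Predicted transcripts, overlap by the summit, 10 kb flanks, a 1 kb promoter, ranking by p-value and other merging distances moved none by this rule. Leaving out peaks over promoters of other genes, which was chosen after seeing the data, did not either. The rule lets small changes pass. Members toward E14.5 in fibers fell from 3 to 2 by the summit and with a 1 kb promoter, where Lamb1 was lost. With q values under 0.001 the P0.5 fiber loci kept 54 peaks, the members toward epithelium and toward fibers at P0.5 were 3 and 1, those toward E14.5 fibers against P0.5 fibers 7, and regions of fibers without epithelium 30.3%. With equal numbers of peaks the E14.5 loci kept 181 peaks in epithelium and 163 in fibers. The members then called toward E14.5 and toward P0.5 were 1 and 2 in epithelium and 1 and 3 in fibers. The shares called in E14.5 lists only, P0.5 lists only, epithelium without fibers and fibers without epithelium were then 35.3%, 25.2%, 30.2% and 26.3%, and the last 2 changed order. With a 3-fold ratio 1 member, Lama1, was toward fibers at P0.5. Of 80 values of gene body cover recomputed with these 2 reductions, an addition chosen after seeing the data, 65 stayed within 1.5 times. Fewer peaks enter under the first 2 settings by construction. P0.5 fibers, with a median of 8 fragments at a summit, limit what can be said of weak peaks.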
